A study of Mus musculus with 6 samples.

Results

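The GATA transcription factors and their FOG cofactors were followed in the urogenital ridge of mouse embryos that lack the Wilms tumour gene Wt1. All 6 GATA factor genes (Gata1 to Gata6) and both FOG genes (Zfpm1, encoding FOG1, and Zfpm2, encoding FOG2) were on the array. Members were taken as every probe whose platform gene symbol is 1 of these 8 names. That gave 8 probes, 1 for each gene, out of 13769 genes named on the array.

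RNA came from whole urogenital ridges of E11.5 embryos, which contain mesonephros, coelomic lining and the primordium of the gonad. Knockout (KO) ridges were from Mf1 embryos homozygous for a deletion of Wt1, and wild-type (WT) ridges from Mf1 wild-type embryos. The 3 KO and 3 WT arrays each carried pooled ridges of 5 untreated embryos at 11 to 12 tail somites, of which 4 were female and 1 was male. The labels name no tissue-specific deletion, and they leave unsaid whether replicate arrays represent independent pools. The p-values then reflect the spread among arrays, which may be technical.

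GATA factors are zinc finger proteins that bind the DNA sequence GATA, and FOG proteins attach to their amino-terminal finger and bring in corepressors. In the early gonad GATA4 is needed for the ridge to form and, with FOG2, for the testis programme, and GATA6 is expressed in overlapping cells. GATA3 is a regulator of the nephric duct and of sympathetic neurons, while GATA1 and GATA2, with FOG1, are best known from red blood cells, megakaryocytes and blood progenitors. GATA5 acts mainly in the heart and in endoderm-derived tissue.

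The deleted gene was checked first and was lower in KO on each of 2 probes. At the brighter one Wt1 had intensities of 14.3, 15.7 and 14.2 in KO, against 44.1, 43.6 and 39.1 in WT. Where these probes lie relative to the deletion is not given in the sources used here, so the signal left in KO is not a measure of intact transcript. Intensities are linear spot brightness scaled so that the median of each array lies near 1, and the spread between arrays was wider in KO (median SD 0.148 on the log2 scale) than in WT (0.0918). Some ridge markers had signal in both genotypes. Of the gonadal primordium list Emx2 had 3.96 ± 0.218 in KO and 6.12 ± 0.437 in WT. Nr5a1, the nuclear receptor SF1, had 2.11 ± 0.0936 and 2.78 ± 0.111 in the same order (SD, n = 3 each). Others of the gonadal and coelomic lists fell further (Lhx9, Nr0b1 and Muc16) or rose (Insr, Tcf21 and Aldh1a2), with values given below. Cbx2, Msln and Podxl of these lists were too dim over all arrays to be tested. Genes of skeletal muscle, sympathetic neurons and stomach mesenchyme were also present and differed between the genotypes, with values given beside the GATA results below.

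Of the 8 genes, 3 were lower in KO (Zfpm2, Gata6 and Gata2), 2 were higher (Gata3 and Gata5), and 3 did not pass the test (Gata4, Gata1 and Zfpm1). Calls are at an adjusted p under 0.05 in limma's moderated test over 15062 tested probes, with Benjamini-Hochberg adjustment. The background was high: 41.3% of all tested probes were called, 24.1% as higher and 17.2% as lower in KO. The 3625 probes higher and 2596 lower became 3043 and 2954 under quantile and 2970 and 3028 under cyclic loess normalization of the arrays. The 5 of 8 called here are therefore not read as an excess. The same shares stand behind every list count below, and no list was tested against them. KO and WT arrays were fully apart for 6 of the 8 genes, 3 higher and 3 lower, where 52.8% of all tested probes did not overlap, 31.4% higher and 21.4% lower. The call rate also rose with brightness, and was 12.8% in the dimmest quartile of tested probes, where Gata1, Zfpm1 and Zfpm2 lay, and 60.2% in the brightest, where Gata3 lay. Gata2 lay in the second quartile (40.8% called) and Gata4, Gata5 and Gata6 in the third (51.4% called).

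**Figure D1:**
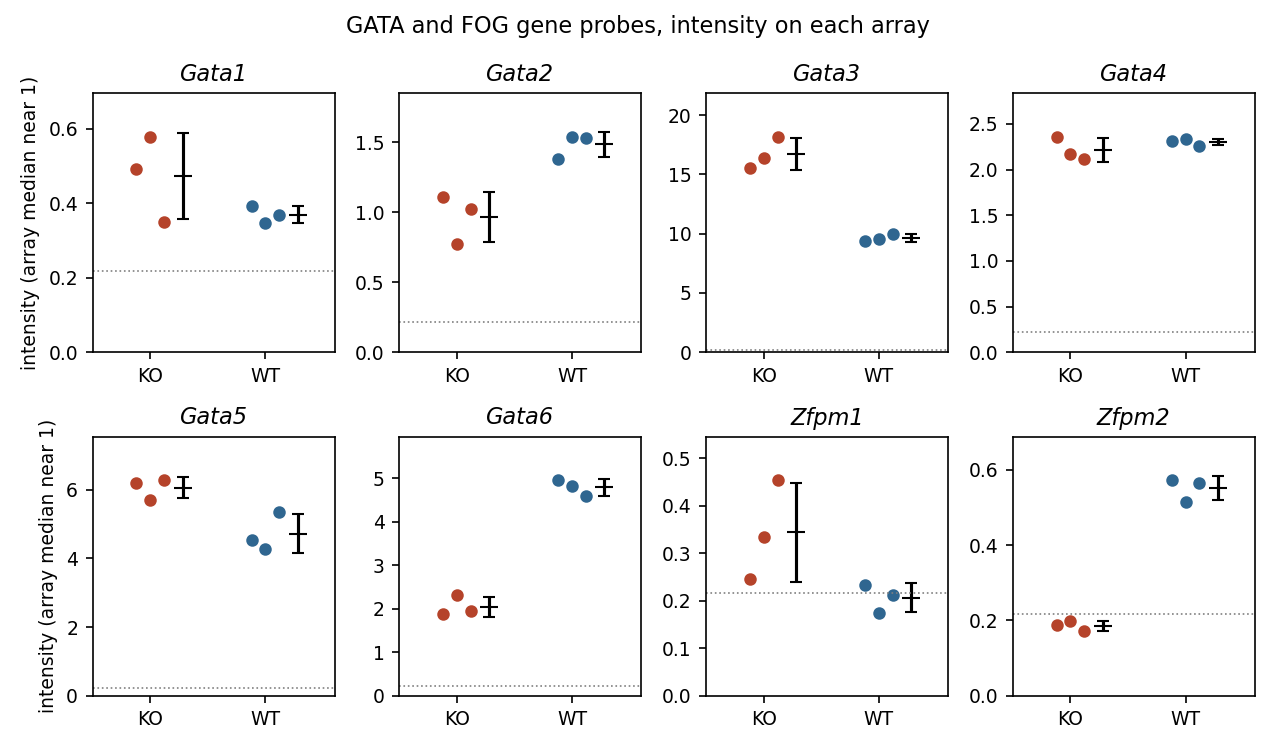
Intensity of each GATA and FOG probe on every array (linear axes from 0, array median near 1), with 3 KO arrays left and 3 WT arrays right in each panel. Coloured points are arrays, black bars the mean ± SD, and the dotted line the limit of 0.217 below which a probe's mean was taken as dim. Gata6 and Zfpm2 lie lower on every KO array, Gata3 higher, and the Gata4 points overlap.

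Among the GATA and FOG genes of the gonad, Gata4 showed no detected difference while Gata6 and Zfpm2 fell. Gata4 had 2.36, 2.17 and 2.12 on the KO arrays, against 2.31, 2.33 and 2.26 on the WT arrays. The KO values spanned those of WT. The log2 change was -0.06 ± 0.09 (SE), with adjusted p = 0.628 (limma) and a 95% interval of the KO to WT ratio from 0.843 to 1.10. The sign of this small difference turned to 0.01 under quantile normalization of the arrays.

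Gata6 had 1.88, 2.31 and 1.95 in KO, against 4.96, 4.83 and 4.59 in WT. All KO arrays lay below all WT arrays, with no overlap. The means were 2.05 ± 0.230 in KO and 4.79 ± 0.189 in WT (SD, n = 3 each). Gata6 was thus 2.35-fold lower, at -1.23 ± 0.10 on the log2 scale (SE), with adjusted p = 2.64e-06 (limma). Of all tested probes, 1.71% had a log2 change as low or lower. Fewer cells of a type and less RNA per cell cannot be told apart in these bulk samples.

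Zfpm2, whose product FOG2 binds GATA4 in the gonad and heart, had 0.187, 0.200 and 0.173 in KO, against 0.573, 0.516 and 0.566 in WT. Every KO value lay below the limit for dim probes, an intensity of 0.217, so only a bound on the change can be given. Zfpm2 was at least 2.54-fold lower in KO, set against that limit. The fitted log2 change was -1.57 ± 0.29 (SE, adjusted p = 0.00105, limma), but its size and p-value rest on KO values under the limit. The probe was tested because its mean over all arrays was above the limit, where only the WT values lay above it. In the dimmest quartile of tested probes, where this probe lay, 7.01% were called lower.

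Ratios between probes on the same array do not depend on any single factor by which that array was scaled. The Gata6 to Gata4 ratio was 0.797, 1.07 and 0.923 in KO, against 2.14, 2.07 and 2.03 in WT. The Zfpm2 to Gata4 ratio was 0.0791, 0.0921 and 0.0817 in KO, against 0.248, 0.221 and 0.250 in WT. Relative to Gata4, Gata6 was thus 2.26-fold lower in KO, while no fold is given for the Zfpm2 ratio, whose KO values rest on a signal under the limit for dim probes. The Gata5 to Gata4 ratio was 2.62, 2.64 and 2.96 in KO, against 1.97, 1.83 and 2.36 in WT, and was 1.34-fold higher. The Gata5 to Gata6 ratio was 3.03-fold and the Gata3 to Gata2 ratio 2.69-fold higher in KO. The genotypes did not overlap for any of the 5 ratios. With 3 arrays against 3 the exact permutation test (two-sided) cannot go below p = 0.1, the value of all 5 ratios before and after adjustment over them.

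**Figure D2:**
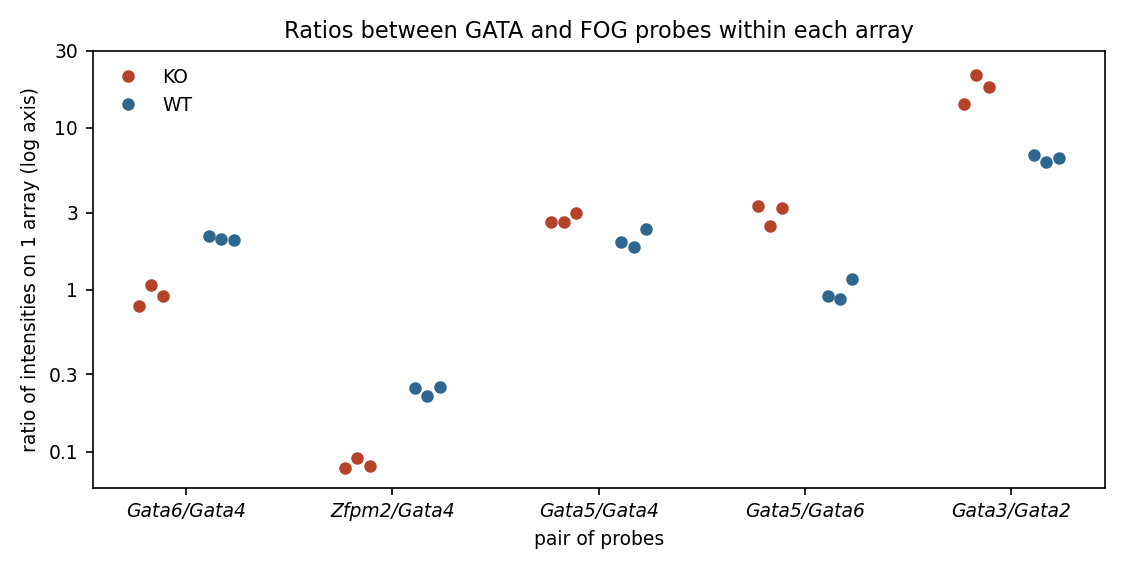
Ratios of the intensities of a pair of probes on the same array (log axis), with 3 KO arrays left and 3 WT arrays right for each pair. Heights of different pairs are not comparable, since probes differ in brightness. The KO and WT points are apart for each of the 5 pairs.

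A list of 22 genes reported in the literature as targets of GATA4 or FOG2 in the gonad had 13 tested members, of which 8 fell, 2 rose and 3 did not pass. Its median log2 change was -0.93, where the median of all tested probes was 0.09. Amhr2, the receptor for anti-Müllerian hormone, had 0.480 ± 0.0575 in KO and 30.6 ± 1.77 in WT (SD, n = 3 each, adjusted p = 8.85e-12, limma), a log2 change of -6.0 ± 0.10 (SE). The 3-beta-hydroxysteroid dehydrogenase genes Hsd3b1 and Hsd3b6, steroid-making enzymes whose probes may not be separable, were at least 4.61-fold and 3.76-fold lower. Their KO means lay under the limit for dim probes, so both were tested only through their WT values. Both count among the 8 that fell and enter the median. The others that fell were Lhx9, Inha, Wnt4, Fst and Nr5a1, whereas Fgf9, a growth factor of the testis pathway, and the Wnt inhibitor gene Sfrp1 rose. Under quantile and cyclic loess normalization 1 gene of the list was called higher and 8 lower. These genes beyond the first 3 were named after their values were seen. Amh, Inhba and Foxl2 did not pass. Sox9, Dmrt1, Star, Cyp11a1 and Cyp17a1 were not tested, since their means over all 6 arrays lay below the limit for dim probes. Of these, Dmrt1 (0.0962 ± 0.104 in KO and 0.267 ± 0.0466 in WT) and Star (0.0591 ± 0.0941 in KO and 0.297 ± 0.140 in WT) were lower on every KO array than on any WT array. Several of these genes are also known as Wt1 targets, so the list does not separate the factors.

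Of the genes that act beside GATA4 in the gonadal primordium, 7 of 11 tested fell and 2 rose (median log2 change -0.52). Lhx9, a LIM homeobox gene needed for gonad formation, had 1.12 ± 0.0531 in KO and 4.23 ± 0.218 in WT, a log2 change of -1.92 ± 0.09 (adjusted p = 5.69e-08, limma). Nr0b1, which encodes DAX1, had 0.953 ± 0.173 in KO and 3.32 ± 0.116 in WT, 3.52-fold lower. The insulin receptor gene Insr was 1.67-fold higher (adjusted p = 0.00365), and Tcf21, a transcription factor gene named after its value was seen, was 1.30-fold higher. The summed intensity of the 12 measured genes of this list ran from 228 to 243 in KO and from 230 to 240 in WT. Most of that sum was the bright probe of Nr2f2, at 169 ± 11.0 in KO and 160 ± 4.90 in WT, which did not pass.

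Gata3 rose in KO. Its probe had 15.5, 16.4 and 18.2 in KO, against 9.41, 9.51 and 9.98 in WT. The lowest KO array was above the highest WT array. The means were 16.7 ± 1.37 in KO and 9.64 ± 0.304 in WT (SD, n = 3 each). The increase was 1.73-fold, or 0.79 ± 0.08 on the log2 scale (SE), with adjusted p = 1.43e-05 (limma). In the brightest quartile of probes 46.1% were called higher, and 4.17% of all tested probes rose as much or more. Under quantile normalization the log2 change of Gata3 was 0.72 ± 0.07, in the same direction.

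Most other genes of the nephric duct, where GATA3 acts, did not pass the test. Of 14 tested members 1 rose (2 without KO array 1), 3 fell and 10 did not pass, with a median log2 change of -0.09. The gene that rose was Ret, the receptor for the duct growth factor GDNF, at 3.16 ± 0.273 in KO and 2.38 ± 0.148 in WT (SD, n = 3 each), named after its value was seen. The keratin gene Krt8 was 2.70-fold lower, Cdh1, the epithelial cadherin, had 1.54 ± 0.112 in KO and 2.88 ± 0.165 in WT, and Emx2, which the gonadal list also holds, was 1.54-fold lower. Lhx1, a duct transcription factor gene, had a log2 change of 0.47 ± 0.21 that did not pass (adjusted p = 0.0999). The summed intensity of the 16 measured duct genes was 83.4 to 90.6 in KO and 92.0 to 94.5 in WT. Pax8 and Gfra1 were too dim over all arrays to be tested, and their genotypes overlapped.

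Most tested genes on the list for sympathetic neurons, the other cells of this region known to use Gata3, were higher in KO. Of 13 tested, 10 rose and 0 fell in limma, with 0 lower at an unadjusted p under 0.05 as well. The other 3, Phox2a, Ddc and Dbh, had log2 changes of 0.10, -0.05 and -0.04, and the median of the list was 0.69. The neuronal tubulin gene Tubb3 had 7.52 ± 1.14 in KO and 2.25 ± 0.176 in WT (adjusted p = 6.34e-07), Stmn2, a regulator of axonal microtubules, was 2.60-fold higher, and Sox10, a gene of neural crest and glia, had 13.5 ± 0.506 in KO and 5.84 ± 0.363 in WT. The summed intensity of all 14 measured genes was 79.5 to 80.6 in KO and 49.3 to 50.5 in WT, with Hand2 too dim over all arrays to be tested. For spinal interneurons, some of which use Gata2 and Gata3, the array held 7 of 12 chosen genes, and 4 were tested. En1 and Gad1 rose 3.06-fold and 1.48-fold, and 2 did not pass. Foxn4, Slc32a1 and Lhx5 were too dim over all arrays to be tested, and their genotypes overlapped. Whether the rise of En1 and Gad1 came from interneurons that use Gata2 or Gata3 was not tested. The part of sympathetic neurons and spinal interneurons in the Gata3 result was not tested either.

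Gata5 rose slightly. It had 6.19, 5.71 and 6.28 in KO, against 4.55, 4.26 and 5.34 in WT. The genotypes were separate, by the gap between 5.71 in KO and 5.34 in WT. The means were 6.06 ± 0.305 in KO and 4.72 ± 0.559 in WT (SD, n = 3 each). The increase was 1.29-fold, or 0.37 ± 0.09 on the log2 scale (SE), with adjusted p = 0.0083 (limma). Without WT array 2 the log2 change was 0.30 and the call ended at adjusted p = 0.0523. An increase of this size or more was seen at 23.3% of all tested probes.

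Of 9 tested heart genes, the tissue in which Gata4, Gata5 and Gata6 act with Nkx2-5, 4 rose and 1 fell (2 fell without KO array 2). Nkx2-5, a cardiac homeobox gene, was at least 3.01-fold higher, and Tnnt2, cardiac troponin T, had 2.27 ± 0.353 in KO and 0.796 ± 0.0546 in WT. Myl7, the atrial myosin light chain gene, had 19.4 ± 1.83 in KO and 40.2 ± 2.64 in WT (adjusted p = 3.86e-06, limma). The heart markers Hand2, Nppb, Myh6, Myh7 and Myl2 were too dim over all 6 arrays to be tested. Of these, Hand2 (0.238 in KO and 0.158 in WT), Nppb (0.160 in KO and 0.0414 in WT) and Myh6 (0.248 in KO and 0.0439 in WT) were higher on every KO array than on any WT array. On the coelomic epithelium list, the lining from which gonadal cells arise, 3 of 9 tested genes fell and 1 rose (2 rose without KO array 1), with a median log2 change of 0.07. The mesothelial mucin gene Muc16 was at least 8.54-fold lower, and the keratin genes Krt8 and Krt19 were 2.70-fold and 1.63-fold lower. Aldh1a2, which makes retinoic acid, was the gene that rose, at 38.4 ± 5.81 in KO and 27.2 ± 0.623 in WT, named after its value was seen.

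Gata2 fell in KO. It had 1.11, 0.770 and 1.02 in KO, against 1.38, 1.54 and 1.53 in WT. All 3 KO arrays lay below the lowest WT array. The means were 0.967 ± 0.176 in KO and 1.48 ± 0.0889 in WT (SD, n = 3 each). Gata2 was 1.55-fold lower, at -0.63 ± 0.14 on the log2 scale (SE), with adjusted p = 0.00394 (limma). KO array 2 was the lowest, and without it the log2 change was -0.48, still past the threshold.

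Endothelial genes, of a cell type that uses Gata2, included 5 that fell and 1 that rose among 14 tested (median log2 change -0.19). Pecam1, an adhesion molecule of endothelium, had 0.340 ± 0.151 in KO and 0.801 ± 0.0578 in WT, and Tek, an angiopoietin receptor, was 1.64-fold lower. Emcn, which encodes endomucin, was 1.76-fold lower on its brighter probe, while a dim second probe that was not tested went the other way, at 0.275, 0.149 and 0.296 in KO, against 0.00258, 0.00219 and 0.147 in WT. The gene that rose was Kdr, at 1.19-fold, named after its value was seen, and under quantile and cyclic loess normalization 0 were called higher and 7 lower. Without KO array 1, 2 were called higher, and without WT array 2, 0. The summed intensity of the 16 measured endothelial genes was 112 to 117 in KO and 119 to 123 in WT. The brightest probe in that sum was that of Kdr, at 37.7 ± 1.29 in KO and 31.7 ± 1.16 in WT. The part of endothelial cells in the Gata2 result was not tested.

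Gata1 and Zfpm1, the pair that drives red cell and megakaryocyte genes, were dim and did not pass. Gata1 had 0.491, 0.579 and 0.351 in KO, against 0.393, 0.346 and 0.369 in WT, and the genotypes overlapped. Its log2 change was 0.33 ± 0.26 (SE, adjusted p = 0.328, limma), with a 95% interval of the KO to WT ratio from 0.851 to 1.86. Zfpm1 had 0.246, 0.333 and 0.454 in KO, against 0.233, 0.173 and 0.212 in WT. Each KO value lay above the WT values, but the WT mean was below the limit for dim probes and the KO arrays differed widely among themselves. The log2 change of Zfpm1 was 0.71 ± 0.38 (adjusted p = 0.161, limma), and the interval of the ratio ran from 0.913 to 2.92.

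Erythroid genes were split, with 3 higher and 3 lower of 16 tested and a median log2 change of -0.11. Under quantile and cyclic loess normalization 2 were higher and 7 lower. Add2, beta adducin of the membrane skeleton, was 1.85-fold higher on its brighter probe, while a dim second probe did not pass (log2 change 0.09 ± 0.40). Ldb1 and Lmo2, whose products join GATA1 and TAL1 in a DNA-binding complex, were 1.58-fold and 1.44-fold lower. Tal1 itself, named after its value was seen, was 1.22-fold higher (adjusted p = 0.00483, limma). The embryonic globin genes Hba-x, Hbb-bh1 and Hbb-y did not pass, and the summed intensity of the 17 measured erythroid genes was 1505 to 1612 in KO and 1516 to 1558 in WT. Most of that sum was globin: Hba-a1, which did not pass either, Hba-x, Hbb-bh1 and Hbb-y had means of 407, 285, 478 and 344 in KO. Their WT means were 348, 262, 494 and 374 in the same order. Among blood progenitor, megakaryocyte and mast cell genes, 3 of 13 tested rose and 2 fell, with 4 lower without KO array 1 and 1 without WT array 3. Lyl1, a partner of GATA2 in blood progenitors, was 1.94-fold lower (adjusted p = 0.00883, and 0.0523 without WT array 3), Gp9, a platelet glycoprotein gene, had 1.88 ± 0.182 in KO and 1.01 ± 0.0592 in WT, and Kit, the stem cell factor receptor, had 1.87 ± 0.0695 in KO and 2.80 ± 0.106 in WT. Kit is also on the germ cell list, where 6 of 10 tested genes fell and 1 rose. Ifitm1 and Alpl had log2 changes of -1.78 and -0.92. Dazl, which lay under the limit for dim probes on 1 of 3 KO arrays, was at least 2.54-fold lower. Pou5f1, another germ cell gene, had 5.50 in KO and 5.40 in WT and did not pass. Ddx4 and Ifitm3 did not pass either, and Tdrd5 was too dim over all arrays to be tested. The highest log2 change on the germ cell list was 0.53.

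**Figure D3:**
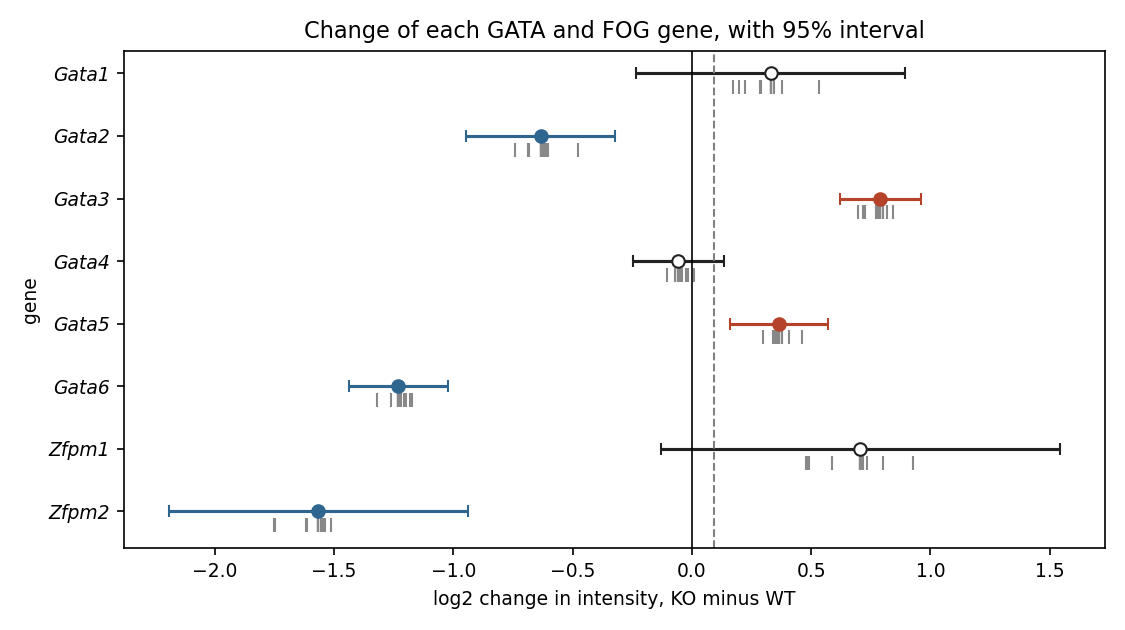
Log2 change in intensity of each GATA and FOG gene, KO minus WT, with its 95% interval. Filled points passed adjusted p under 0.05 (red higher in KO, blue lower), open points did not, grey ticks are the values under the alternative processing settings, and the dashed line is the median of all tested probes, 0.09. Gata6, Zfpm2 and Gata2 lie left of 0 and Gata3 and Gata5 right of it under every setting shown.

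Promoter sequences from RefSeq (build GRCm38.p6) were examined for 5 of the 8 genes, among them Gata3, Gata5 and Gata2, which changed in opposite directions. Those of Gata4, Gata6 and Zfpm2 were not examined, so nothing is said of their promoters. The 250 bases before a transcript start are shown for these 3 genes, 5′ to 3′ on the gene's strand, with Gata2 at both of its listed starts. The motifs searched on both strands were GATA sites, spelled AGATAA or with G last as AGATAG, and, with T first, as TGATAA or alternatively as TGATAG. The GC-rich letters GCGTGGG and also GCGGGGGCG, of the kind that WT1 and EGR proteins can bind, were searched too. So was the looser form GNGNGGGNG, which the longer of these also matches. Capitals mark matches to the others, and a match is a description of the letters and not evidence of binding.
Gata3, chr2:9878601-9878850, minus strand: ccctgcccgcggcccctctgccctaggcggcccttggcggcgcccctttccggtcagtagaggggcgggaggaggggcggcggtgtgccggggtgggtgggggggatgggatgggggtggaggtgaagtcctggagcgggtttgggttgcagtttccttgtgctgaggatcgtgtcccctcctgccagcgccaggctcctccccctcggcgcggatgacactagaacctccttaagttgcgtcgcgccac
Gata5, chr2:180334680-180334929, minus strand: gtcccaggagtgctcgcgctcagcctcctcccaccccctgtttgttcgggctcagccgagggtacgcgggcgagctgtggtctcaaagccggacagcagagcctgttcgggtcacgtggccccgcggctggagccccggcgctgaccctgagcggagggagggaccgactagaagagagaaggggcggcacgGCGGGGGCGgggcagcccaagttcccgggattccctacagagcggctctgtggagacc
Gata2, chr6:88193641-88193890, plus strand: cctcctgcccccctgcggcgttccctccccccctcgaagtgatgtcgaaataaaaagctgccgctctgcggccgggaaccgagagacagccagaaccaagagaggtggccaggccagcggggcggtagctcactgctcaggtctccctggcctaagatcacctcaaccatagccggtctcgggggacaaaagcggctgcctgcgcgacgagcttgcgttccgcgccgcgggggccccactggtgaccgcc
Gata2, chr6:88198414-88198663, plus strand: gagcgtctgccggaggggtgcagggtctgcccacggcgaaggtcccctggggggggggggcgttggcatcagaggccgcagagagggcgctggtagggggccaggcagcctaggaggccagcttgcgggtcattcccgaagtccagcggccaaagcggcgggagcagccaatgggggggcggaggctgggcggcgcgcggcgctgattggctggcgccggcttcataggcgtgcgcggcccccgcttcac

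Among these 4 windows that of Gata5 alone held GCGGGGGCG, which 2.57% of 32851 mouse promoter windows of 250 bases hold. None of the 4 held GCGTGGG, found in 4.30% of windows, or a GATA site, found in 26.5%. All 4 held the looser form, which is in 35.8% of windows, with 5 matches for Gata3, 2 for Gata5, and 2 and 7 for Gata2, overlaps counted. Just inside the Gata3 transcript, from its base 37, lay 1 GATA site, chr2:9878551-9878576, ctggcgccgtctTGATAGtttcagaa. The 4 windows were rich in G and C, at 70% for Gata3, 70% for Gata5, and 67.2% and 74% for Gata2, where the median window had 52.4%. The windows of Gata1 and Zfpm1, which did not pass the test on the arrays, were examined too. They held 2 and 0 matches to the looser form, at 54% and 73.2% G and C, and neither held any of the other motifs. The array data carry no measurement of binding at these sequences.

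FOG proteins act through the NuRD complex and the CtBP proteins, and all 16 genes of that list were tested. Of these, 7 were called higher and 3 lower, but these counts depended on the scaling: under quantile and under cyclic loess normalization 3 were higher and 6 lower. Most of these genes were bright, and in the brightest quartile of tested probes 46.1% were called higher and 14.1% lower. The counts are therefore not read as a result about the corepressors. Without WT array 2, 1 was lower. Ctbp2, a FOG-binding corepressor, was 2.0-fold lower, at 1.76 ± 0.232 in KO and 3.49 ± 0.253 in WT (adjusted p = 2.82e-05, limma), and had a log2 change of -0.94 under quantile normalization. Mta3 and Chd3, subunits of NuRD, were 1.53-fold and 1.52-fold higher and kept their calls under both, at 0.63 and 0.30 under quantile normalization. Mta1 was 1.53-fold higher on its brighter probe and had a log2 change of -0.33 ± 0.19 on a dimmer one that did not pass. Mta2 and Mbd3 had log2 changes of -0.27 and -0.41 and were called lower in each of these scalings. Both calls ended without WT array 2, and that of Mta2 also without KO array 3.

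The remaining corepressor genes had small changes. Rbbp4 had a log2 change of 0.34, Chd4 of 0.37, Gatad2a of 0.33 on its brighter probe (0.11 ± 0.10 on the other, not past the threshold) and Ctbp1 of 0.23, and each of these 4 calls ended under quantile normalization, where Rbbp4 and Ctbp1 turned to -0.05 and -0.01. The call of Ctbp1 also ended without KO array 2 or 3 and without WT array 1, 2 or 3. Rbbp7, Cdk2ap1, Hdac1, Mbd2, Gatad2b and Hdac2 did not pass, with log2 changes from -0.16 to 0.12 (Hdac1 passed without KO array 1, at 0.20), and of these Rbbp7, Cdk2ap1 and Mbd2 were called lower under quantile and cyclic loess normalization. Of the other genes with a GATA-type zinc finger, Trps1, an atypical GATA protein that represses transcription, was 1.30-fold lower, at 2.28 ± 0.216 in KO and 2.95 ± 0.0707 in WT (adjusted p = 0.00647), and Gatad1 did not pass (log2 change -0.29 ± 0.19). Gatad1 had 16.2, 8.93 and 8.27 in KO, against 13.4, 13.4 and 12.1 in WT, and without KO array 1 its log2 change was -0.59 with adjusted p = 2.38e-06 (limma). The other 5 members of that list, Mta1, Mta2, Mta3, Gatad2a and Gatad2b, are on the corepressor list too. Of this list 3 rose and 2 fell, and 1 fell without KO array 3 or without WT array 2.

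**Figure D4:**
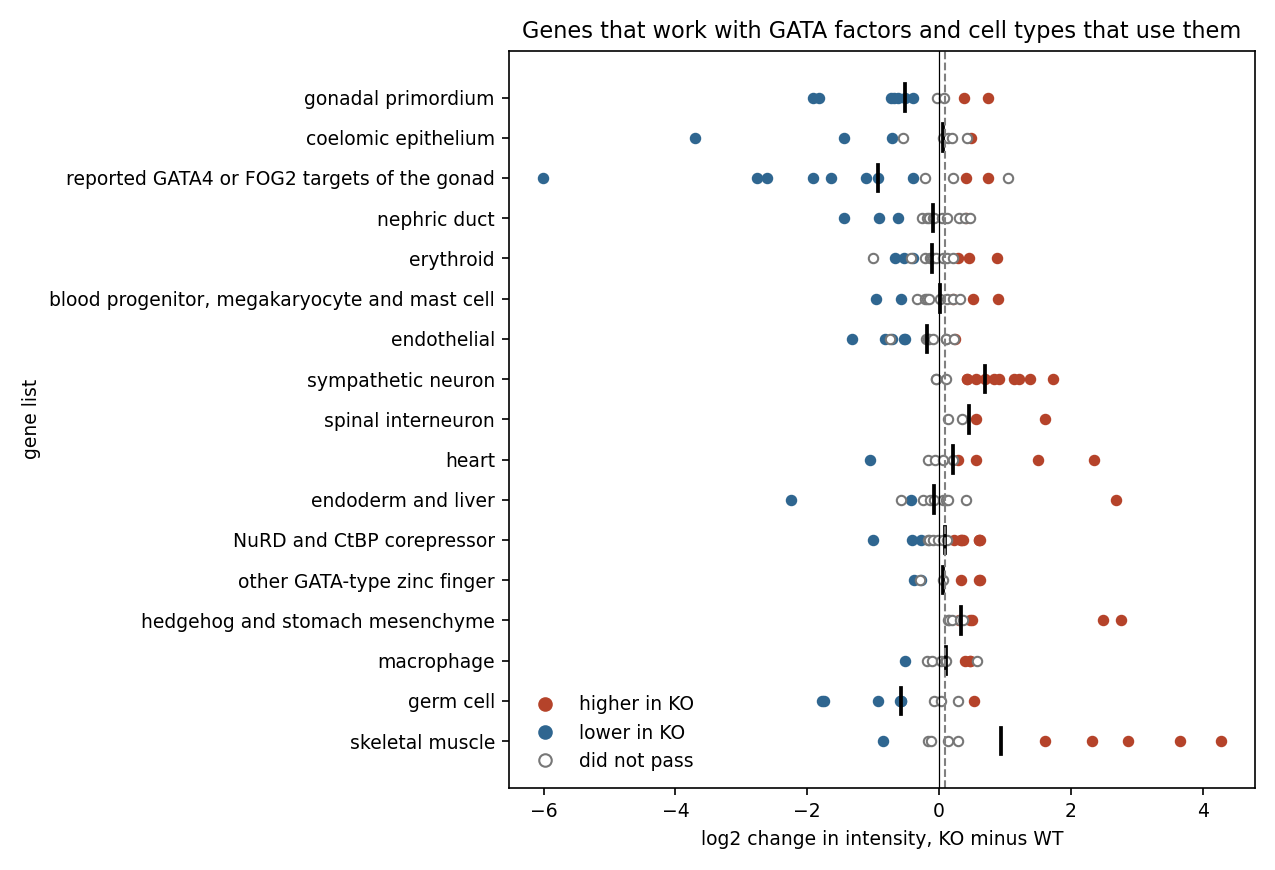
Log2 change in intensity, KO minus WT, of each tested gene on 17 lists of GATA-related genes and cell types. Red points were called higher in KO, blue lower, open points did not pass, black bars are list medians and the dashed line is the median of all tested probes, 0.09. The medians of sympathetic neuron, stomach mesenchyme and skeletal muscle genes lie right of that line, and those of gonadal primordium and germ cell genes left of it.

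Endoderm and its mesenchyme, where Gata4, Gata5 and Gata6 are active, differed in part. Of 11 tested endoderm and liver genes 1 rose and 2 fell (1 without WT array 2). Ttr, which encodes transthyretin, had 3.75 ± 0.515 in KO and 0.588 ± 0.101 in WT, Spink1, a trypsin inhibitor gene, was 4.75-fold lower, and Apoa1, of high-density lipoprotein, was 1.35-fold lower, a call that ended without WT array 2 (adjusted p = 0.0922, limma). The endoderm markers Foxa2, Foxa3 and Pdx1 were not tested, since their means over all 6 arrays lay below the limit for dim probes. Of these Foxa2 was above it on every KO array, at 0.307, 0.369 and 0.274, against 0.156, 0.0831 and 0.116 in WT, and was fully apart. Of 10 tested hedgehog and stomach mesenchyme genes 5 rose and 0 fell in limma, with 0 lower at an unadjusted p under 0.05. The count that rose was 3 without KO array 2 or without any 1 of the WT arrays. Barx1, a homeobox gene of stomach mesenchyme, had 23.4 ± 1.76 in KO and 4.16 ± 0.232 in WT (adjusted p = 2.73e-09, limma), Tlx1, a spleen homeobox gene, was 6.79-fold higher, and Nkx3-2 was 1.41-fold higher. The call of Nkx3-2 ended without KO array 2 or 3, without WT array 1 or 3 and with no filter on dim probes (adjusted p from 0.0609 to 0.131, limma). The summed intensity of the 13 measured genes of that list was 36.0 to 40.0 in KO and 14.8 to 15.9 in WT. Most of the KO sum, and most of its difference from WT, was the probe of Barx1. Hhip, Ptch1, Nkx2-3, Gli3 and Gli1 did not pass. These tissues express GATA genes of their own, and their part in the results above was not tested.

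Skeletal muscle and macrophages were measured as other cells the dissection could hold. Of 10 tested skeletal muscle genes 5 rose and 1 fell (2 without KO array 2). The largest changes were those of Tnnc2, Mstn and Myh3, at log2 changes of 4.28, 3.65 and 2.86. Chrna1, Actc1, Myf6 and Pax3 did not pass, and the lowest log2 change on the list was -0.85. Myog was too dim over all arrays to be tested. Of 10 tested macrophage genes 3 rose and 1 fell (2 without KO array 2), with Coro1a 1.43-fold lower and Aif1 and Cd14 1.39-fold and 1.38-fold higher.

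The genes whose profile over the 6 arrays lay nearest to each called member were sought by Euclidean distance of centred log2 values over 11868 named probes. Nearest to Zfpm2 were Fkbpl, Wt1 itself on its brighter probe and Plac1, at distances of 0.218, 0.226 and 0.239, and 66 probes lay within 0.5. The KO part of the Zfpm2 profile lay under the limit for dim probes, so these distances are uncertain. Nearest to Gata6 were Rnf213, Nle1 and Stxbp2 (0.136, 0.159 and 0.173, with 229 probes within 0.5). Gata2 was nearest to Cant1, Fhl2 and Rab20, at 0.154 to 0.177. Gata3 was nearest to Hspbap1, Col24a1 and Chst5, at 0.0916 to 0.108, where 1267 probes lay within 0.5. Gata5 was nearest to Usp38, Mindy1 and Ets1, at 0.0646 to 0.114, with 3632 probes within 0.5. With 6 arrays in 2 genotypes, profiles are near wherever the difference between genotypes is of similar size.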

How the data were processed

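Per the labels' protocols and the series text, biotin-labelled total RNA was run on CodeLink arrays of a single colour. The deposited intensity values are linear, with column medians of 0.956 to 0.966. The sources used here do not name the software, background correction or flags. The 6 arrays held 20289 probes, with 190 to 212 empty cells and 153 to 246 values at or below 0 per array.

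Values under the 5th percentile of positive values (0.0811) were raised to it before taking log2, with no further scaling, since array medians differed by 0.0153. Probes with values on 2 or more arrays of each genotype and a mean above the 25th percentile of probes (intensity 0.217) were tested, 15062 in all. KO was compared with WT in limma 3.58.1 (R 4.3.3; lmFit, eBayes with trend), with genotype as the only term and adjustment over all tested probes. The fit was tested on simulated data. All 8 GATA and FOG probes passed the filter. Where the lower genotype's mean lay under the limit, the fold is a bound: the higher mean over the mean of, per array, the limit or the probe's own value if higher (means of log2 values). Such a probe passed the filter only through the other genotype.

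Probes were named from GEO's platform annotation (15120 with 1 symbol, 38 with several, 5131 unlisted), updated by Entrez identifier to RefSeq GRCm38.p6, where 56 found no match. Of 264 list entries, 3 older symbols were replaced. Each list gene was represented by the brightest of its probes without missing values. Coordinates are given for the promoter sequences and the Gata3 site alone, and not for the probes, whose build is not stated. Genes named by a rule are the 8 members, Wt1, up to 3 called genes of largest change per list (or the 2 brightest), all genes of the corepressor and GATA-type finger lists, and the 3 nearest profiles. Other list genes in the text, among them Lhx1, Pou5f1, Nr2f2, Dmrt1, Star and Foxa2, lie outside this rule and were named with their values known. Members and lists were chosen with earlier results of these data known. Alternatives covered normalization, floor, filter, variance trend, replicate block and leaving out each array. Array number limits the precision.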

Additional observations from a re-analysis of the deposited data

How the results depend on the processing

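All 5 calls among the GATA and FOG genes kept their direction under the 15 alternatives in which each was tested (14 for Zfpm2, which the filter at the median probe removed), and only that of Gata5 was lost, without WT array 2, where its log2 change was 0.30 (adjusted p = 0.0523) and the count of genes higher was 1. Over the alternatives the log2 change ran from -1.32 to -1.17 for Gata6, from -1.75 to -1.51 for Zfpm2, from -0.74 to -0.48 for Gata2, from 0.70 to 0.84 for Gata3 and from 0.30 to 0.46 for Gata5. Gata1, Gata4 and Zfpm1 passed under none, with lowest adjusted p of 0.116, 0.345 and 0.0642. Gata4 turned to 0.0103 under quantile normalization. Leaving out single arrays gave 2820 to 4243 probes higher and 1970 to 3074 lower over the array. With the number in the array titles as a replicate block, Gata6 had adjusted p = 2.69e-06, Zfpm2 0.00282, Gata2 0.00431, Gata3 1.7e-05 and Gata5 0.00594, and no member call changed, while that of Ctbp1 ended (adjusted p = 0.0539). Arrays with the same number did not deviate together (correlations of deviations -0.0182 to 0.00469), so the numbers were not taken to pair the arrays. Over all list genes 51 were higher and 41 lower, against 45 and 55 under quantile and 44 and 56 under cyclic loess normalization. Of the corepressor genes some turned sign. Of those called higher, Ctbp1 went to -0.0149 under quantile and -0.0080 under cyclic loess normalization, and Rbbp4 to -0.0543 (quantile). Of those that had not passed, Hdac1 went to -0.00025 and Gatad2b to -0.0040 (cyclic loess), Gatad2b to -0.13 and -0.08 without KO array 2 and WT array 3 (-0.135 to 0.242 over single arrays left out), and Hdac2 to 0.07 without KO array 3 (-0.0898 to 0.0662). The cause was not tested. Of 510 list counts under alternatives, 472 stayed within 1.5 times. Under quantile and cyclic loess normalization the skeletal muscle genes lower were 2 and 3, and heart genes lower 2 in both. With probes above the median probe alone, 5 reported GATA4 or FOG2 targets were lower, 1 gonadal primordium, 1 spinal interneuron, 2 stomach mesenchyme and 3 skeletal muscle genes were higher, and 1 blood progenitor gene was lower. With no filter 2 endoderm genes were higher. Without the variance trend Ctbp1, Chd4 and Mbd3 lost their calls. Signal near the dim limit bounds what can be said of Zfpm1, Gata1 and Zfpm2.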
